A study of Mus musculus with 4 samples.

Results

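Lactate dehydrogenase and the lactate carriers of the cell surface were followed through 4 of the 21495 genes measured: Ldha and Ldhb, which encode the A and B subunits of lactate dehydrogenase, and Slc16a1 and Slc16a3, which encode the monocarboxylate transporters MCT1 and MCT4. They were chosen from the measurements themselves, namely a lower Ldhb in both miR-17~92 knockout samples and a higher Slc16a3 in the E11.5 knockout, in CPM per cell type and sample (CPM is the usual scaling of a gene's molecules to all molecules of the same cells). Ldha and Slc16a1 were added as the partner subunit and the partner carrier. The levels and ratios below therefore describe these genes, and no test is made of them. The choice was not limited to 1 type, so the counts over types belong to it as well. In pre-supporting cells, for example, Ldhb stood at 4356 CPM in the XY control against 2017.5 CPM in the E11.5 knockout, and Slc16a3 at 41.3 against 115 CPM.

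Single cells came from mouse gonads dissected together with the mesonephros, on a background labelled C57BL/6 x 129S4/SvJae, and each of the 4 groups is 1 pool of 3 to 4 pairs of gonads. The XY control (E11.5) consists of embryos made by tetraploid aggregation from unedited G4 embryonic stem cells, which the methods give as a hybrid of C57BL/6J and 129. The male mutant samples XY KO E11.5 and also XY KO E11.75, below called the E11.5 and the E11.75 knockout, are embryos made in the same way from G4 cells that carry a homozygous CRISPR deletion of the miR-17~92 microRNA cluster, throughout the embryo proper, and how many edited clones were used is not given in the sources used here. The XX control (E11.5) carries no deletion and came from matings of C57BL/6J males with 129 females, so it differs from the XY samples in how the embryos were made as well as in sex. No control of E11.75 is analysed here, hence stage and deletion cannot be told apart in that sample.

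Lactate dehydrogenase is a tetramer that interconverts pyruvate and lactate while it exchanges NADH and NAD+. Tetramers rich in the A subunit favour the making of lactate at the end of glycolysis, whereas those rich in the B subunit favour its oxidation back to pyruvate. MCT1 and MCT4 carry lactate together with a proton across the plasma membrane, both with the help of the chaperone basigin, and MCT4 is known mainly for export from glycolytic cells. In the mature testis, Sertoli cells are known to pass lactate to the germ cells as fuel.

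The 4 genes lie on different chromosomes. On GRCm38 (mm10), Ldha spans chr7:46841475-46855627 on the plus strand, Ldhb chr6:142490249-142507957 on the minus strand, Slc16a1 chr3:104638668-104658462 on the plus strand and Slc16a3 chr11:120948480-120960868 on the plus strand. The deleted cluster encodes 6 mature microRNAs, and their sequences from RefSeq (GRCm38.p6, chromosome 14, plus strand) are printed 5′ to 3′ because the 3′ UTRs of the 4 genes were searched for their seeds. The capitals mark the seed, bases 2 to 8, and the names sharing a seed form a family, so miR-17 and miR-20a are 1 family and miR-19a and miR-19b another.
miR-17-5p: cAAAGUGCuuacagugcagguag
miR-18a-5p: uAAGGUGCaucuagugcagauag
miR-19a-3p: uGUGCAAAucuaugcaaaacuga
miR-20a-5p: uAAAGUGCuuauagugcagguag
miR-19b-3p: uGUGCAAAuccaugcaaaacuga
miR-92a-3p: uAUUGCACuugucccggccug

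A 7-base site, either the whole seed or its first 6 bases followed by an A in the mRNA, was found in 3 of the 4 genes, and the 8-base site that has both in none of them. Ldhb, the gene lower in both knockouts, has 1 match to the miR-19 seed at bases 293 to 299 of its longest annotated 3′ UTR of 339 bases, in 2 of its 3 annotated transcripts. Slc16a3 has 1 match to the miR-18 seed, in 1 of 3 transcripts. Both are shown as mRNA with the paired bases in capitals.
Ldhb: guuugaugUUUGCACuaggagcu
Slc16a3: ggcagcggGCACCUUggcgggcc

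Slc16a1 has 3 sites of the kind with an A, 1 for miR-18 and 2 for miR-92, and the Ldha 3′ UTR has 0. Among the 17348 genes of the table with an annotated 3′ UTR, 12.7% hold an 8-base site for at least 1 of the seeds and 45.2% hold a site of 7 or 8 bases. A 7-base site is thus a common feature, and a match is a description of the letters only.

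Promoters were set side by side because Ldha and Slc16a3 were both higher in the E11.5 knockout while Ldhb was lower. The sequences run from 250 bases before to 50 bases after an annotated start in RefSeq (GRCm38.p6), on the strand of the gene. The letters ACGTG are a form of the core to which hypoxia-inducible factors are known to bind. The other form, GCGTG, was not searched or counted, but its letters stand in lower case in the Ldhb and the Ldha windows printed below. The places counted here are therefore those of ACGTG only. ACGTG, which also lies within the E-box CACGTG, was searched on both strands, and its letters are in capitals. They stand at 2 places in Slc16a3 (chr11:120948817-120949116, plus strand), at 3 places at the first of 2 Ldha starts (chr7:46845554-46845853, plus strand) and at 0 places in Ldhb (chr6:142507908-142508207, minus strand).
Slc16a3: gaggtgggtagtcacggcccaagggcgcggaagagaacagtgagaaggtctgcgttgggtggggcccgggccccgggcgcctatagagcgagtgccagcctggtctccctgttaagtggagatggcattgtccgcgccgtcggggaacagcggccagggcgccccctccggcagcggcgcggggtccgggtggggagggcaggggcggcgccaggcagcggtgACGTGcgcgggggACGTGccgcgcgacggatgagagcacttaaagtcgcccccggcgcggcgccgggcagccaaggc
Ldha: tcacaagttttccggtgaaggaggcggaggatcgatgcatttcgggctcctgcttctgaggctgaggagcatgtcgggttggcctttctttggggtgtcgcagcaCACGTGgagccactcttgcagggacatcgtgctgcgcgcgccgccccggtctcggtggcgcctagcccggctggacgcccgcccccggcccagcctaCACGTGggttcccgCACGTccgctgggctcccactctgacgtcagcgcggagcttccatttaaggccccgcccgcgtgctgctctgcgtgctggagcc
Ldhb: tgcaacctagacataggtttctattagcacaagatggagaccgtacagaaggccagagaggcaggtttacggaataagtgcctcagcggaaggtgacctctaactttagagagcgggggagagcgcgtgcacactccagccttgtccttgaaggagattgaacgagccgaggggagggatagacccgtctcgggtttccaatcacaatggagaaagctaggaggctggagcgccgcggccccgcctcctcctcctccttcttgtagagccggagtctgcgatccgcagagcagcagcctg

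The second Ldha start holds ACGTG at 0 places and the Slc16a1 promoter at 2. Of 32851 promoters of the same length, 19.6% hold these letters at least once. Their absence from the Ldhb window says nothing about which factors act there.

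The table holds 52745 cells, from 3669 in the XX control to 23527 in the XY control, with 17057 labelled as the E11.5 knockout and 8492 as the E11.75 knockout. The study's methods list the cell numbers of the 2 knockouts the other way round. The filters in those same methods differ between the knockouts, with a higher mitochondrial and a lower globin ceiling at E11.5. In the cells labelled E11.5 the deposited percentages reached 9.9953% mitochondrial and 0.388% beta globin, against 8.99% and 0.724% in those labelled E11.75, each just under the ceiling stated for the stage on the label. The labels are followed here. Depth was uneven, with a median of 3893 UMIs (unique molecular identifiers, each counting 1 captured mRNA 3′ end) per cell in the XY control, 4763 in the E11.5 knockout, 3921.5 in the E11.75 knockout and 15509 in the XX control. Between 1 and 40 barcodes were shared by any pair of 10x runs. Mir17hg, the host transcript of the cluster, stood at 19.8, 156, 161 and 18.2 CPM over all cells of these samples in that order, and since its 3′ tags do not read the hairpins, it is no direct check of the deletion. Levels were taken in the 13 deposited cell types, of which pre-supporting cells (deposited as bipotential progenitors) give rise to Sertoli cells (deposited as supporting cells). The Pre-supporting genes Wnt4, Runx1, Gadd45g, Sry, Nr5a1 and Wt1, known markers of that state, summed to between 2383 and 2685 CPM in the pre-supporting cells of the 4 samples. Intervals below are 95% intervals that cover counting error only, and with 1 sample per group no difference has a replicate check. The comparisons with the XY control share that sample. A UMI counts 3′ ends, so CPM of different genes are set beside each other as numbers of captured molecules and not per length. Transcripts at least 90% alike over 300 bases or more are annotated at 11 other places for Ldha and 1 for Ldhb, none of them a gene of the table, so reads lost or gained through such copies could not be checked.

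Ldhb, the B subunit, had the most UMIs of the 4 genes over all cells of each sample and was concentrated in the supporting lineage. Pre-supporting cells held 4356 CPM (95% interval 4310 to 4402, 34344 UMIs) in the XY control, 2017.5 CPM (1982 to 2054) in the E11.5 knockout, 1554.5 CPM (1519 to 1591) in the E11.75 knockout and 4836 CPM (4784 to 4888) in the XX control. Both controls, XY and XX, were therefore high and both knockouts low, with no overlap of the intervals. The log2 ratio to the XY control was -1.11 (-1.14 to -1.08) in the E11.5 knockout, -1.49 (-1.52 to -1.45) in the E11.75 knockout and 0.15 (0.13 to 0.17) in the XX control. As folds, the XY control was 2.16 times (2.11 to 2.20) the E11.5 knockout and 2.80 times (2.73 to 2.88) the E11.75 knockout.

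These ratios are part of how the gene was chosen, and they are read against all genes only as a description. In pre-supporting cells, 2.23% of the 9725 genes that reached 100 UMIs in the 2 samples combined were at least 1 log2 unit lower in the E11.5 knockout, and Ldhb was the only one of the 4 genes among them, with 178 genes below it. The share for the E11.75 knockout was 1.68% of 9742 genes, with 51 genes below Ldhb. The median gene stood at -0.09 in the first comparison, at 0.19 in the second and at -0.11 in the XX control. The 2 technical runs of a sample share its pool of gonads and show nothing of the spread between samples. Ldhb read 4322 and 4394 CPM in the 2 runs of the XY control, 2085.5 and 1956 in those of the E11.5 knockout, and 4758 and 4910 in those of the XX control. Sertoli cells carry more Ldhb than pre-supporting cells, so Sertoli RNA among the pre-supporting cells was measured too. The Sertoli genes Sox9, Amh, Dhh, Ptgds, Sox10 and Fgf9 summed to 218, 29.7, 101 and 13.9 CPM in pre-supporting cells of the XY control, the E11.5 knockout, the E11.75 knockout and the XX control. The XX control thus had the lowest Sertoli sum and the highest Ldhb. The part of Sertoli RNA in the difference between the XY samples was not tested.

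In Sertoli cells Ldhb reached the highest level of any type in the XY control, 6559 CPM over 752 cells. It was 1997 CPM in the 168 Sertoli cells of the E11.75 knockout, a log2 ratio of -1.72 (-1.78 to -1.65). The E11.5 knockout had 24 cells under this name, with 4295 CPM, and the XX control 2 cells, with 2863 CPM, too few for a ratio. The Sertoli genes summed to 1601 CPM in the Sertoli cells of the XY control and 1182 CPM in those of the E11.75 knockout, so the cells under the same name also held fewer Sertoli marker transcripts in the knockout.

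Outside the supporting lineage Ldhb was lower in the knockouts as well, from a smaller base. Supporting-like cells came next, with 989 CPM in the XY control, 715 in the E11.5 knockout, 585 in the E11.75 knockout and 1129 in the XX control. The coelomic epithelium, the surface layer of the gonad, held 918, 654, 515 and 974.5 CPM in the same order. Both types showed the order seen in pre-supporting cells, XX control highest and the E11.75 knockout lowest. Germ cells showed the smallest gap, with 309, 272, 232 and 408 CPM. Their log2 ratios were -0.18 (-0.32 to -0.05) in the E11.5 knockout and -0.41 in the E11.75 knockout.

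**Figure D1:**
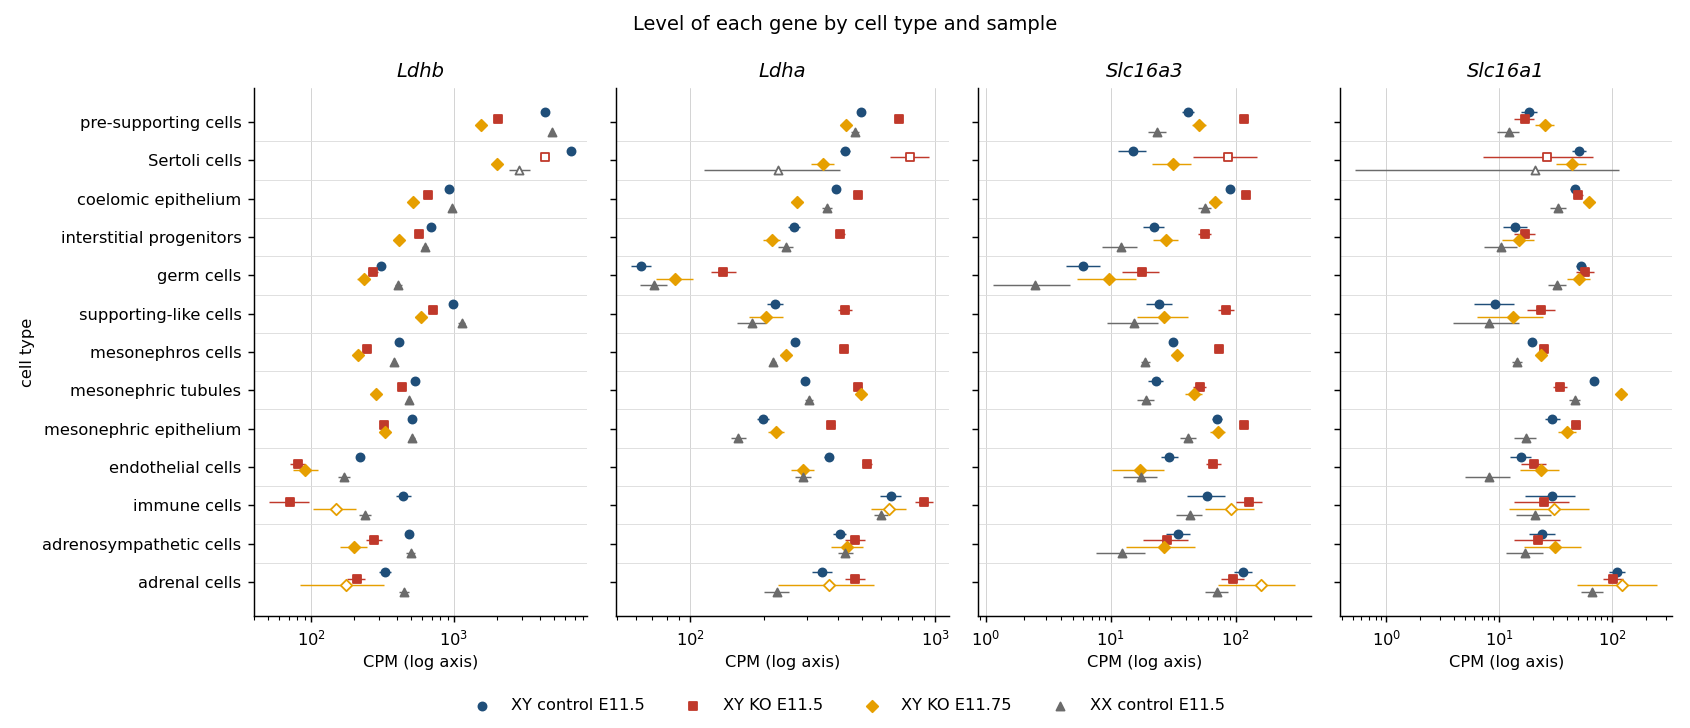
Levels in CPM (log axis) of the 4 genes in each of the 13 cell types, 1 symbol per sample, with bars for 95% Poisson intervals and open symbols for types under 50 cells. Ldhb is highest in Sertoli and pre-supporting cells and lies lower in both knockouts than in the XY control in every type with 50 cells or more, while Slc16a3 lies higher in the E11.5 knockout in 10 of 12 such types.

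Counting types with at least 50 cells in both samples, the interval of Ldhb lay below 0 in 12 of 12 types in the E11.5 knockout and in 11 of 11 in the E11.75 knockout. At least 1 log2 unit was reached in 3 of them in the E11.5 knockout, the pre-supporting, endothelial and immune cells, where 2.23%, 0.996% and 5.04% of genes were as much lower. In the E11.75 knockout it was reached in 4, the pre-supporting, Sertoli, endothelial and adrenosympathetic cells, where the shares of genes were 1.68%, 2.53%, 0.845% and 1.64%. Scaled by TMM factors, which hold the bulk of genes level, it was reached in 3 of 12 types in the E11.5 knockout and 6 of 11 in the E11.75 knockout. In a single type an interval below 0 is common. Among the genes of pre-supporting cells, 27.4% lay below 0 and 1139 of 9725 lay above in the E11.5 knockout, 20.8% and 41.1% in the E11.75 knockout, and 29.9% and 12.7% in the XX control. All 12 types at once were below 0 for 10 of 1691 genes tested in every type, 0.591%. Besides Ldhb these were 5 globin genes (Hba-a1, Hba-a2, Hba-x, Hbb-bh1 and Hbb-y), the imprinted gene H19, Exosc5, Top1 and Gm10076, named here after their values were seen. For the E11.75 knockout the same count was 352 of 4348 genes, 8.1%, over 11 types, and 5.43% of them lay above 0 in all 11. Globin transcripts come from red blood cells and can appear in other types as free RNA. Globin genes made up 0.299% of all UMIs in the XY control, 0.122% in the E11.5 knockout, 0.175% in the E11.75 knockout and 0.139% in the XX control. The globin share was thus below the XY control in the 3 other samples, and Ldhb of pre-supporting cells in both knockouts but not in the XX control. The part of free RNA in the Ldhb difference was not tested. The authors' filter on globin also differed by sample. The highest beta globin percentage of a deposited cell was 1.36% in the XY control, 0.388% in the E11.5 knockout, 0.724% in the E11.75 knockout and 13.8% in the XX control. The part of that filter in the globin differences was not tested.

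The largest Ldhb difference stood in immune cells, with 442 CPM in the XY control and 71.1 CPM in the E11.5 knockout, a log2 ratio of -2.62 (-3.15 to -2.15). The Immune genes Ptprc, Fcer1g, C1qa and Csf1r summed to 604 CPM in the immune cells of the XY control, against 2197 CPM in the E11.5 knockout, 2293 in the E11.75 knockout and 2411 in the XX control. The Pre-supporting genes summed there to 438.5 CPM in the XY control and to 194 CPM in the E11.5 knockout. The immune cells of the XY control therefore held fewer immune transcripts and more of those of pre-supporting cells, whose part in the Ldhb difference was not tested. Without immune cells, the largest difference in the E11.5 knockout was -1.44, in endothelial cells, and 11 of 11 types remained below 0. In endothelial cells, too, the Pre-supporting genes moved with Ldhb, with 180 CPM in the XY control and 82.9 CPM in the E11.5 knockout, and their part was not tested.

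Ldha, the A subunit, was spread more evenly over the tissue. In the XY control its level ran from 63.0 CPM in germ cells to 657 CPM in immune cells, a 10.4-fold range, where Ldhb spanned 29.8-fold. Pre-supporting cells held 495 CPM (480 to 511) in the XY control, 707 CPM (686 to 729) in the E11.5 knockout, 431 CPM (412 to 451) in the E11.75 knockout and 470 CPM (454 to 487) in the XX control. The E11.5 knockout stood alone above the others. Its log2 ratio to the XY control was 0.51 (0.45 to 0.58), above 96.1% of the genes tested, and that of the E11.75 knockout was -0.20 (-0.28 to -0.12).

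The higher Ldha of the E11.5 knockout was found across the tissue. Its interval lay above 0 in 12 of 12 types, from 0.21 in adrenosympathetic cells to 1.11 in germ cells, where 63.0 CPM in the XY control stood against 136 CPM. Germ cells were the 1 type past 1 log2 unit, where 0.215% of genes were as much higher, while 3 types were past it with TMM factors and 2 with totals that leave out globin, ribosomal protein and mitochondrial genes and Gm42418. Among the 1691 genes tested in every type, 14 (0.828%) lay above 0 in all 12. They include Pgam1, an enzyme of glycolysis, besides Ldha, and 7 ribosomal protein genes, again named after their values were seen. In the E11.75 knockout the pattern was mixed, with 6 types below 0 and 3 above. Scaled by TMM factors, which hold the bulk of genes level, the split became 7 below and 1 above. The mesonephric tubules, with 498 CPM in the E11.75 knockout and 295 in the XY control, were the highest at a log2 ratio of 0.76.

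Put together as a share of dehydrogenase UMIs, a measure that does not depend on scaling between libraries, the B subunit made up 89.8% of both subunits in pre-supporting cells of the XY control and 91.1% in the XX control. It made up 74.0% in the E11.5 knockout and 78.3% in the E11.75 knockout. In the E11.5 knockout both subunits moved the share the same way, whereas in the E11.75 knockout the lower Ldhb alone carried it. In germ cells the share was 83.1% in the XY control, 66.6% in the E11.5 knockout, 72.8% in the E11.75 knockout and 85.2% in the XX control. The immune cells, with the marker differences given above, had shares of 40.2%, 7.33%, 18.7% and 28.5%.

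**Figure D2:**
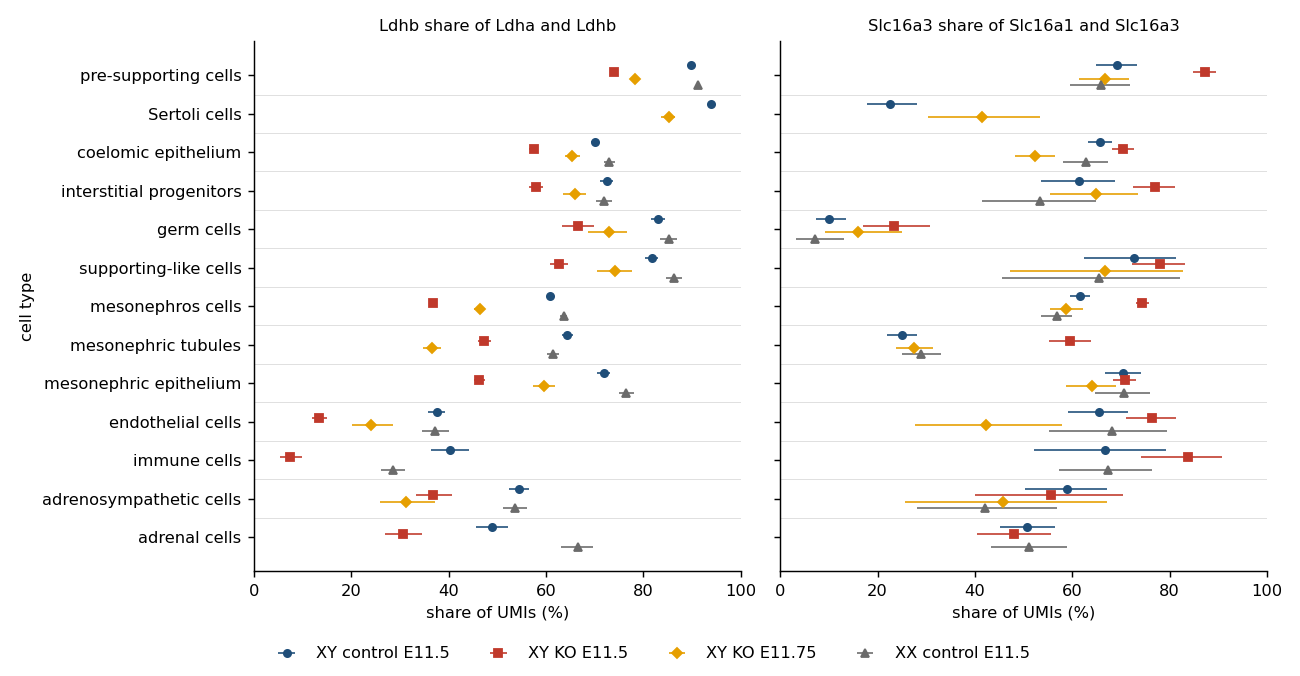
Share of UMIs in percent, per cell type and sample, with bars for 95% Clopper-Pearson intervals: Ldhb of Ldha plus Ldhb in 1 panel and Slc16a3 of Slc16a1 plus Slc16a3 in the other. In pre-supporting cells the Ldhb share is 89.8% in the XY control and 74.0% in the E11.5 knockout, while the Slc16a3 share is 69.2% and 87.3%.

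Slc16a3, the carrier MCT4, was a low transcript. Among the types of the XY control it was highest in adrenal cells and the coelomic epithelium, 114 and 89.7 CPM. Pre-supporting cells held 41.3 CPM (37.0 to 46.1, 326 UMIs) in the XY control, 115 CPM (107 to 124, 696 UMIs) in the E11.5 knockout, 50.6 CPM (44.3 to 57.5, 232 UMIs) in the E11.75 knockout and 23.4 CPM (19.9 to 27.4, 159 UMIs) in the XX control. The E11.5 knockout was far above the other 3 samples, and the XX control was below them. The log2 ratios to the XY control were 1.48 (1.29 to 1.68) for the E11.5 knockout, 0.29 (0.04 to 0.54) for the E11.75 knockout and -0.82 (-1.10 to -0.54) for the XX control. In pre-supporting cells, 0.74% of 9725 genes were at least 1 log2 unit higher in the E11.5 knockout, and 9710 of the 9725 lay below Slc16a3. In the E11.75 knockout, 3.79% of 9742 genes were at least 1 log2 unit higher, and none of the 4 genes was among them. In the XX control 1.64% of 9795 genes were at least 1 log2 unit lower and 0.48% higher, again with none of the 4.

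Relative to the median gene of each comparison, Slc16a3 in the E11.75 knockout was nearly level, 0.29 beside 0.19, and with TMM factors its interval held 0 (-0.16 to 0.34). The 2 runs gave 39.9 and 43.0 CPM in the XY control and 115 and 116 CPM in the E11.5 knockout. Over all 30 pairs of runs within a type, the second run differed from the first by -1.07 to 0.50 on the log2 scale for this low transcript, and for Ldhb by -0.18 to 0.79.

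The higher Slc16a3 of the E11.5 knockout was present in 10 of 12 types, with 8 of them past 1 log2 unit. Besides pre-supporting cells these were interstitial progenitors, germ cells, supporting-like cells, mesonephros cells, mesonephric tubules, endothelial cells and immune cells, where 0.273%, 0.215%, 0.252%, 0.465%, 0.775%, 0.188% and 6.37% of genes were as much higher. Without immune cells, whose marker sums differed between the samples as given above, 7 of 11 types were past 1 log2 unit. Supporting-like cells differed most, with 24.4 CPM in the XY control and 83.9 CPM in the knockout, a log2 ratio of 1.78 (1.38 to 2.20). Interstitial progenitors held 22.1 and 56.1 CPM and germ cells 6.02 and 17.6 CPM (42 and 36 UMIs), while the coelomic epithelium differed less, 0.42 on the log2 scale. The adrenosympathetic and adrenal cells, at -0.29 and -0.27, had intervals that held 0. In the E11.75 knockout the interval lay above 0 in 3 of 11 types and below 0 in 2. Sertoli cells were the 1 type past 1 log2 unit there, with 14.9 CPM in the XY control and 31.2 CPM in the E11.75 knockout, a log2 ratio of 1.07 (0.40 to 1.70), in a type where 4.65% of genes were as much higher. It rests on 62 and 32 UMIs, and with TMM factors 0 types were past 1 log2 unit, the highest at 0.85. In the XX control 9 of 12 types lay below 0, and germ cells and adrenosympathetic cells were past 1 log2 unit lower, on 9 and 21 UMIs, where 0.761% and 1.83% of genes were as low. Germ and Sertoli cells held under 100 UMIs of Slc16a3 in these comparisons, so the gene itself is not among the genes behind those shares.

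**Figure D3:**
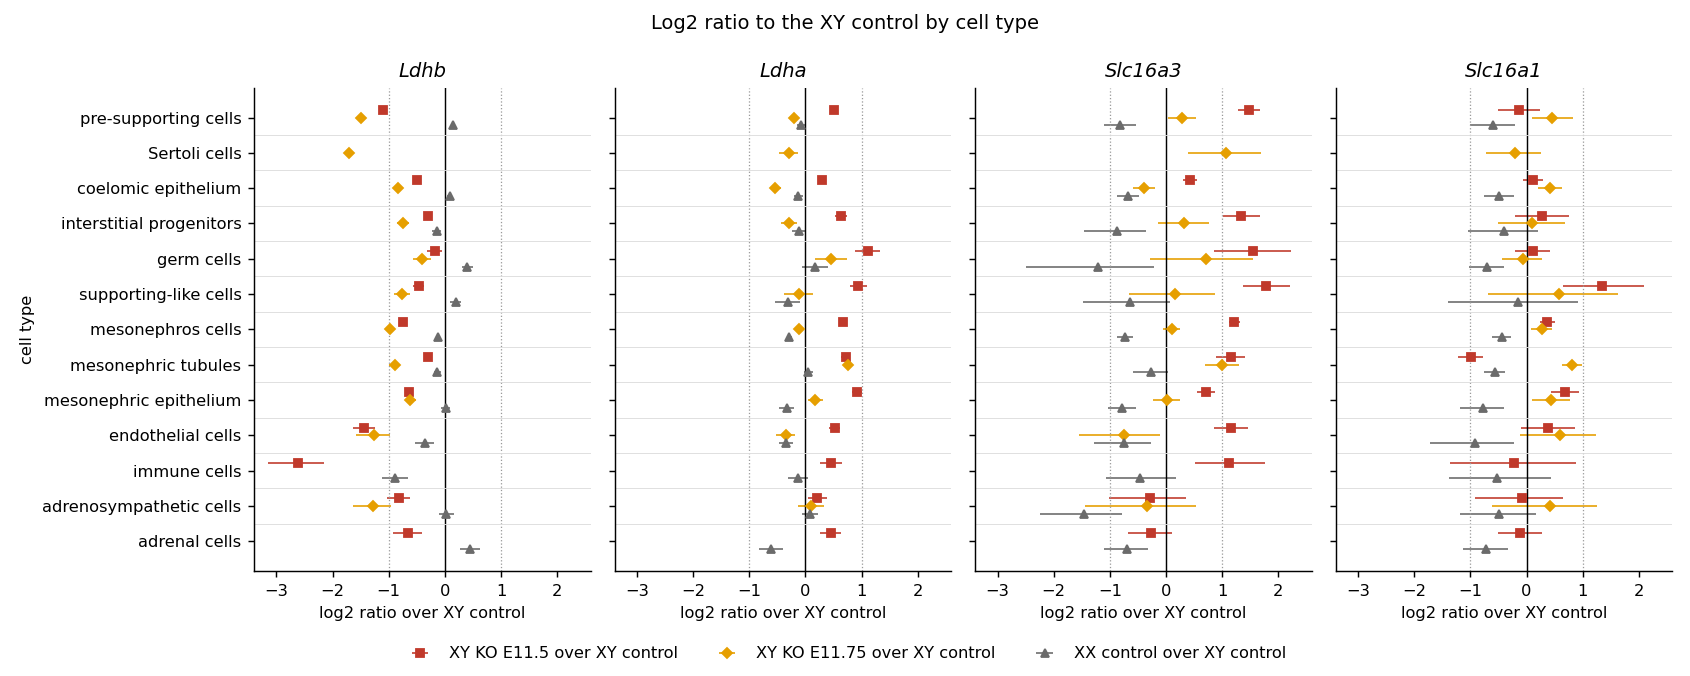
Log2 ratio of CPM to the XY control for the 4 genes in each type with at least 50 cells in both samples, 1 symbol per sample compared, bars for 95% intervals and dotted lines at 1 log2 unit either way. Ldhb lies left of 0 in all knockout values, Ldha right of 0 in all values of the E11.5 knockout, and Slc16a1 on both sides.

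Slc16a1, the carrier MCT1, had its own distribution. In the XY control it was highest in adrenal cells, 111 CPM, and mesonephric tubules, 69.1 CPM, followed by germ cells, 53.4 CPM, and lowest in supporting-like cells, 9.19 CPM. Pre-supporting cells held 18.4 CPM (15.5 to 21.6, 145 UMIs) in the XY control, 16.8 CPM (13.6 to 20.4, 101 UMIs) in the E11.5 knockout, 25.3 CPM (20.9 to 30.3, 116 UMIs) in the E11.75 knockout and 12.1 CPM (82 UMIs) in the XX control. The interval of the XY control overlapped that of each knockout, while those of the knockouts did not overlap each other. The log2 ratios were -0.13 (-0.52 to 0.24) in the E11.5 knockout and 0.46 (0.09 to 0.82) in the E11.75 knockout. With TMM factors the latter was 0.26 (-0.10 to 0.62), an interval that holds 0. With Sertoli cells added to the pre-supporting cells, the ratio in the E11.5 knockout was -0.80 (-1.13 to -0.49), an interval below 0, and that in the E11.75 knockout turned to -0.046 (-0.33 to 0.22).

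The mesonephric tubules were the place where Slc16a1 differed most between the knockouts. They held 69.1 CPM in the XY control, 34.6 CPM in the E11.5 knockout, 121 CPM in the E11.75 knockout and 46.6 CPM in the XX control. The tubule genes Pax2, Pax8, Lhx1, Gata3 and Emx2 (the Mesonephric tubules list) summed to 683, 566, 924 and 482 CPM in those cells. Both the marker sum and Slc16a1 were highest in the E11.75 knockout and next highest in the XY control. The lowest marker sum was that of the XX control, whereas the lowest Slc16a1 was that of the E11.5 knockout. The part of the markers in the Slc16a1 difference was not tested. In supporting-like cells Slc16a1 read 9.19 CPM in the XY control and 23.6 CPM in the E11.5 knockout, a log2 ratio of 1.35 (0.65 to 2.10) on 26 and 52 UMIs. The gene is thus under the minimum of 100 UMIs there, and 0.252% of the genes that reached it were at least 1 log2 unit higher. The 2 runs read 5.34 and 13.5 CPM in the XY control and 23.2 and 24.0 CPM in the E11.5 knockout. Over the types, the interval of Slc16a1 lay below 0 in 1 and above 0 in 3 of 12 in the E11.5 knockout. It lay above 0 in 5 of 11 in the E11.75 knockout (2 above and 1 below with TMM factors), and below 0 in 8 of 12 in the XX control.

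Within germ cells, which take up lactate from Sertoli cells in the mature testis, MCT1 was the main carrier by UMIs. Slc16a3 made up 10.1% of the UMIs of both carriers there in the XY control, 23.4% in the E11.5 knockout, 15.96% in the E11.75 knockout and 7.09% in the XX control. Pre-supporting cells were the reverse, with 69.2%, 87.3%, 66.7% and 66.0% for MCT4. In Sertoli cells the share was 22.6% in the XY control and 41.6% in the E11.75 knockout. The MCT4 share was thus lower in the Sertoli cells of the XY control than in its pre-supporting cells.

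Levels per type were ordered to see which neighbours in the order had separate intervals. The supporting lineage was at the top for Ldhb in each of the 4 samples, and pre-supporting cells exceeded the next type outside the lineage 4.40-fold in the XY control, 2.82-fold in the E11.5 knockout, 2.66-fold in the E11.75 knockout and 4.28-fold in the XX control. Further down, neighbours in the order overlapped in their intervals for 5 of 12 pairs in the XY control for Ldhb, 6 of 12 for Ldha, and 9 of 12 for each carrier. Most carrier levels next to each other in the order therefore had overlapping intervals, which by itself does not show that the levels are alike.

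Whether the differences lay in all cells or in some was read from single cells at equal depth, after each pre-supporting cell was thinned at random to 3000 UMIs. This left out 173, 54, 93 and 3 shallower cells of the XY control, the E11.5 knockout, the E11.75 knockout and the XX control. Ldhb was detected in 99.7%, 96.9%, 95.7% and 100% of the thinned cells, against 99.8%, 98.8%, 97.6% and 100% before thinning. Its median count per cell was 11, 5, 4 and 13 UMIs, and cells with 16 UMIs or more made up 30.4%, 3.98%, 1.32% and 39.5%. Most knockout cells thus still carried Ldhb, at a lower count, and the upper end of the distribution seen in both controls was sparse in both knockouts. In endothelial cells, a type with low Ldhb, the thinned shares were 42.6%, 17.8%, 21.0% and 38.8%, at median depths before thinning of 4796, 8373.5, 5343 and 17632 UMIs. These shares lay below those of pre-supporting cells. The parts of low expression, of free RNA and of the pre-supporting transcripts found in endothelial cells were not tested.

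For Ldha the thinned shares in pre-supporting cells were 71.9%, 84.0%, 66.9% and 68.8% in the same order of samples. For Slc16a3 they were 11.0%, 28.1%, 13.8% and 7.74%, whereas the unthinned shares of 16.1%, 43.9%, 20.2% and 31.3% put the deeply sequenced XX control second. More cells of the E11.5 knockout therefore held an Slc16a3 UMI at equal depth. Germ cells, the type with the lowest Slc16a3, gave 2.16%, 3.16%, 1.32% and 3.57% at the same depth. Before thinning, the median depth was 4522, 5349, 4661 and 17498 UMIs per pre-supporting cell and 11990, 12156, 9279.5 and 40644 UMIs per germ cell.

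**Figure D4:**
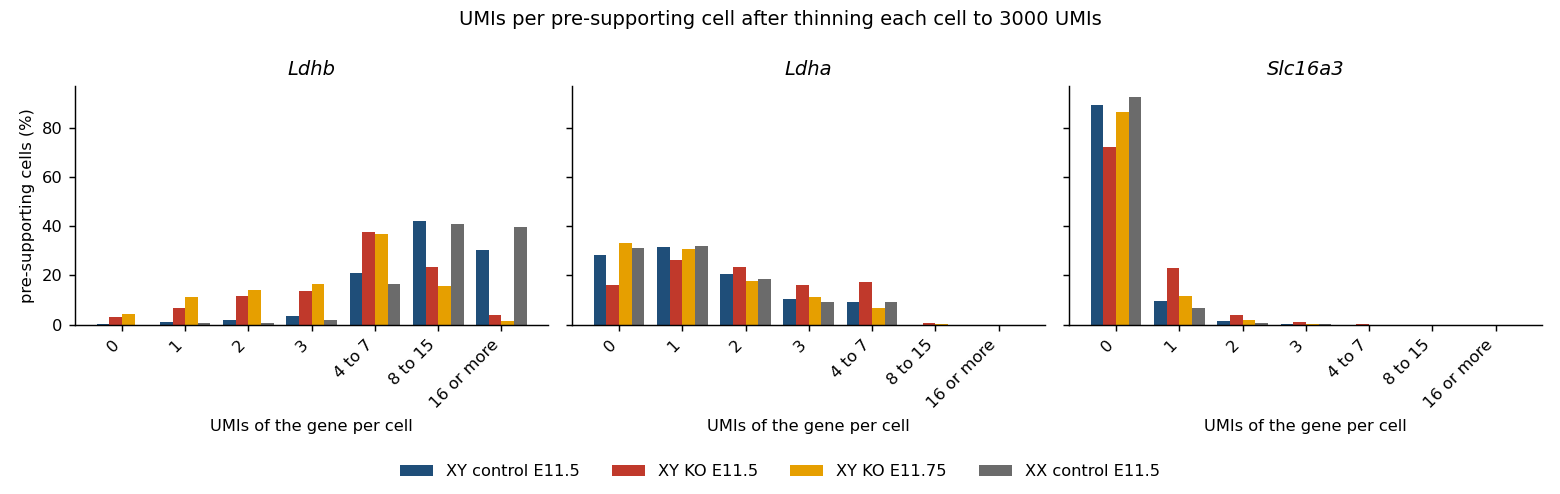
Share of pre-supporting cells in percent (vertical axis) with each number or range of UMIs (horizontal axis) of Ldhb, Ldha and Slc16a3, 1 bar per sample, after thinning to 3000 UMIs per cell. The Ldhb distributions of both knockouts, with medians of 5 and 4 UMIs, sit left of those of the controls, with medians of 11 and 13.

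The genes around lactate were then taken as lists by role, with all values in pre-supporting cells and the same minimum of 100 UMIs. The other dehydrogenase genes Ldhc, Ldhd and Ldhal6b had 0 of 3 members above that minimum. Of the other carriers and partners, 2 of 7 were tested. Basigin, encoded by Bsg, held 600, 659, 428 and 559 CPM in the XY control, the E11.5 knockout, the E11.75 knockout and the XX control, with log2 ratios of 0.14 and -0.49 in the knockouts. Embigin, encoded by Emb, a related chaperone of monocarboxylate carriers, held 27.0, 9.95, 9.37 and 18.3 CPM. Its log2 ratios of -1.43 (-1.88 to -1.02) and -1.51 (-2.04 to -1.05) made it the 1 of 2 tested partners past 1 log2 unit, where 2.23% and 1.68% of all genes were as much lower in the earlier and the later knockout.

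Glucose uptake and glycolysis differed by sample in the way of Ldha. In the E11.5 knockout, 14 of the 16 glycolysis genes tested (of 17 listed) stood above the median gene, and the median of the list was 0.46 beside -0.09 over all genes. In the E11.75 knockout, 4 of 16 stood above it, and the median was -0.27 beside 0.19. Slc2a1, which encodes the glucose transporter GLUT1, was the 1 gene of 16 past 1 log2 unit higher in the E11.5 knockout, beside 0.74% of all genes. It held 38.9 CPM in the XY control, 83.3 in the E11.5 knockout, 52.5 in the E11.75 knockout and 29.6 in the XX control. Its log2 ratios were 1.10 and 0.43, and it had the largest ratio of the list in the E11.5 knockout, where Hk1, a hexokinase, had the smallest, -0.37. The ends of the list in the later knockout were Pfkp, a phosphofructokinase, at 0.70 and Gapdh at -0.93. The triosephosphate isomerase Tpi1 held 487.6, 735.4, 392.4 and 489.6 CPM, with the E11.5 knockout alone high, as for Ldha. Tpi1 is named because its pattern over types and samples was among those most like Ldha and Slc16a3. Its match to Ldha is therefore part of how it was picked.

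Outside pre-supporting cells the median of the glycolysis list was above that of all genes in each of the other 11 types of the E11.5 knockout, from 0.18 in adrenal cells to 0.60 in supporting-like cells. Set directly over the E11.5 knockout, the pre-supporting cells of the E11.75 knockout had 1 of 16 glycolysis genes above the median gene, with a list median of -0.70 beside 0.28. Against that same sample, Ldha stood at -0.71, Slc16a3 at -1.19, Ldhb at -0.38 and Slc16a1 at 0.59. Ldha, Ldhb and Slc16a3 were thus lower in the later knockout than in the earlier one, and Slc16a1 was higher.

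Genes of the response to low oxygen, a list that shares Pdk1 with that of pyruvate entry, had 12 of 15 members tested. In the E11.5 knockout, 11 of 12 stood above the median gene with a median of 0.33, and in the E11.75 knockout 7 of 12 with a median of 0.21. In the XX control 3 of 12 did, with a median of -0.35. Bnip3, a mitophagy receptor, held 23.0 CPM in the XY control and 60.7 CPM in the E11.5 knockout, the largest ratio of the list at 1.40 (1.14 to 1.67), and 25.3 CPM in the E11.75 knockout. The other gene of the list past 1 log2 unit was Adm, the peptide hormone adrenomedullin, at 1.08, named after its value was seen, which makes 2 of 12 beside 0.74% of all genes as much higher. Hif1a, the regulator of this response, had the smallest ratio there, -0.24. The ends of the list in the E11.75 knockout were Ndrg1 at 0.96 and Ankrd37 at -1.24, so that genes of the list stood on both sides of the XY control there.

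The list of pyruvate entry and pyruvate dehydrogenase had 14 of 15 genes tested and stood at the level of all genes, with medians of -0.08 in the E11.5 knockout and 0.20 in the E11.75 knockout and 7 of 14 genes above the median gene in each. Within it, Pdk1, a kinase that turns pyruvate dehydrogenase off, held 44.9, 87.6, 61.0 and 31.9 CPM, with log2 ratios of 0.96 and 0.44. The mitochondrial pyruvate carrier genes went the other way. Mpc2 held 155.5, 110, 73.0 and 179 CPM, with log2 ratios of -0.50 and -1.09, and Mpc1 had ratios of -0.12 and -0.62. Pdk1 was thus above and Mpc2 below the XY control in both knockouts, while the interval of Mpc1 held 0 in the E11.5 knockout. Pdk2, another kinase of the family, had the largest ratio of the list in the E11.75 knockout, 1.19. In that knockout 2 of the 14 genes were at least 1 log2 unit higher, beside 3.79% of all genes. The other was Pdp2, a phosphatase of pyruvate dehydrogenase and not a kinase, named after its value was seen. Mpc2 was the 1 gene of 14 as much lower, beside 1.68% of all genes.

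The NADH shuttles, which pass reducing power into mitochondria as an alternative to lactate, had 9 of 10 genes tested, with medians of -0.15 in the E11.5 knockout and -0.16 in the E11.75 knockout, beside -0.09 and 0.19 over all genes, and 4 of 9 stood above the median gene in each. Mdh1, the cytosolic malate dehydrogenase, held 270, 218, 183 and 311 CPM, with log2 ratios of -0.30 and -0.56, and was the lowest of the list in the E11.75 knockout. Slc25a12, an aspartate-glutamate carrier, had the largest ratio in both knockouts, 0.41 and 0.87. Gpd1l, a glycerol-3-phosphate dehydrogenase relative, was the lowest in the E11.5 knockout at -1.60, and -0.16 in the E11.75 knockout.

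**Figure D5:**
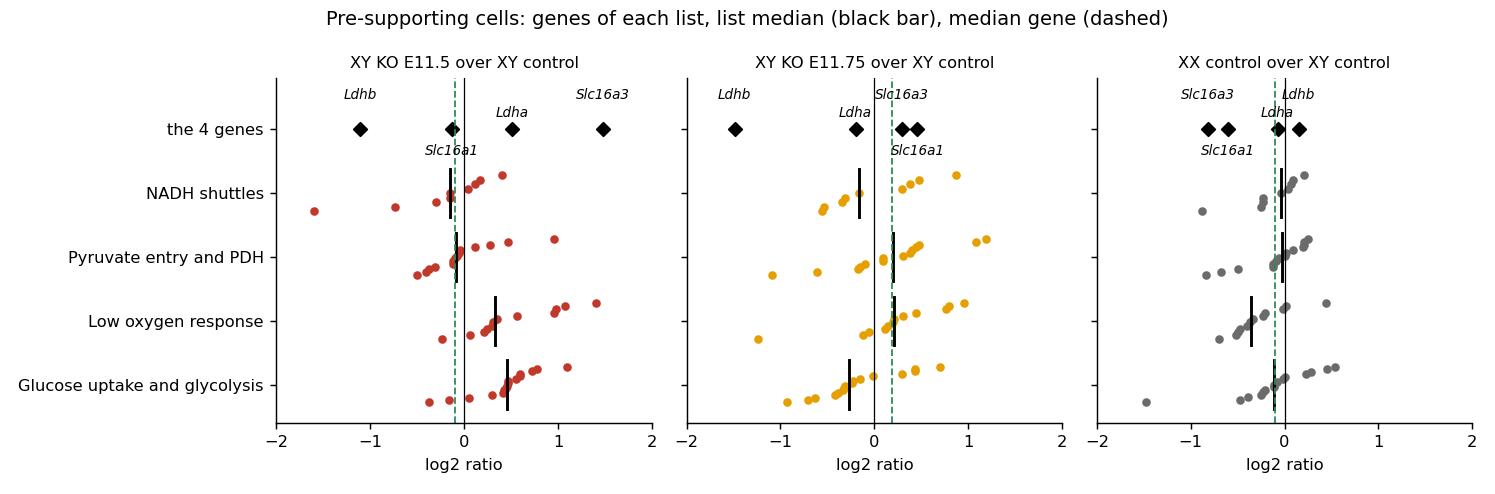
Log2 ratio to the XY control in pre-supporting cells of the E11.5 knockout, the E11.75 knockout and the XX control, 1 panel each. Points are genes of the glycolysis, low oxygen, pyruvate entry and NADH shuttle lists. Black bars are list medians, the dashed line is the median gene and diamonds are the 4 genes. The glycolysis list has a median of 0.46 in the E11.5 knockout and -0.27 in the E11.75 knockout.

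Genes near the 4 on the chromosome were read next. Within 500 kb, 8 genes were tested around Ldha, 5 around Ldhb, 7 around Slc16a1 and 29 around Slc16a3. Of these, 0 were past 1 log2 unit in either knockout, where 2.23% of all genes were as much lower and 0.74% higher at E11.5, and 1.68% lower and 3.79% higher at E11.75, so that few would be past it at the shares of all genes. The 5 genes around Ldhb (of 14 there that are in the table) had log2 ratios from -0.47 to -0.20 in the E11.5 knockout, with a median of -0.26 beside -0.09 over all genes. They ran from -0.19 to 0.37 in the E11.75 knockout, with a median of 0.22 beside 0.19, and in the XX control their median was -0.24 beside -0.11. In the E11.5 knockout all 5 thus lay below the XY control, as Ldhb did. In the E11.75 knockout and the XX control their medians did not follow Ldhb, which was lowest in the former and highest in the latter. The nearest of them, Golt1b (86.4 kb away) and Cmas on the other side, stood at -0.36 and -0.47 in the E11.5 knockout and at 0.14 and -0.19 in the E11.75 knockout. Csnk1d, 0.881 kb from Slc16a3, stood at -0.21 and 0.51, and Fasn on the other side at 0.24 and 0.34. Gtf2h1 and Tsg101 beside Ldha had ratios of 0.20 and 0.06 in the E11.5 knockout, and Lrig2 and Rhoc beside Slc16a1 had ratios of -0.58 and 0.53.

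Likeness of pattern was measured as Pearson's r of log2(CPM + 1) over 48 sums of a type and a sample, among 10517 genes, and given as a description because the points share libraries and cell types. Ldhb was most like Acot1 (0.90), Gm5617 (0.88) and Cpa1 (0.86). Ldha was most like Gusb (0.85), Tpi1 (0.85) and Bak1 (0.81), and Slc16a3 was most like Tpi1 (0.79), Ptp4a2 (0.74) and Cnpy3 (0.72), with Ldha at rank 11 (0.66). The genes nearest to Slc16a1 were Slc25a13, Hspd1 and Fkbp4, each at 0.72. The subunits of the dehydrogenase had an r of 0.085 with each other over the same sums.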

How the data were processed

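Gonads and mesonephros were dissociated, methanol-fixed and run on the 10x 3′ v3.1 chemistry, in 2 technical runs per sample and 1 for the E11.75 knockout. The deposited values are UMI counts, not normalised, which the authors obtained with Cell Ranger 6.1.1 on mm10. They had filtered cells before deposit: XY cells by mitochondrial and globin content and by a ceiling on depth and genes detected, XX cells by discarding poor clusters, with DoubletFinder run against doublets. The percent of mitochondrial and beta globin transcripts per cell, deposited by the authors, was read only for its highest value in each sample. Names came from clusters of Seurat-integrated data, but all 126435795 nonzero values were whole numbers. The gene set and its lists were chosen with earlier results of these data known.

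UMIs were summed per deposited type and sample and divided by the total of all genes (CPM). Sums carry exact Poisson intervals, shares Clopper-Pearson intervals and log2 ratios (prior count 0.5) exact binomial intervals, all at 95%. Fewer than 50 cells in either sample left a type out of the counts of types, and at least 100 UMIs over both samples were needed for the shares of all genes. No test was run, since each group is 1 sample. Genes named by rule were the 4 chosen genes and 6 direct partners (Bsg, Mpc1, Mpc2, Pdk1, Slc2a1 and Mdh1). The ends of each list in each knockout, the nearest tested neighbours and the 3 genes of most similar pattern (at least 2000 UMIs) were named too. Some further genes were named after their values were seen, as is said where they appear. Cells were thinned to 3000 UMIs with a fixed seed. Positions and 3′ UTRs came from GENCODE M21 on GRCm38, and promoters and microRNAs from RefSeq. The code was tested on simulated data and ran on Python 3.11.15, numpy 2.4.6, scipy 1.17.1, pandas 2.3.3, matplotlib 3.10.9, R 4.3.3 and edgeR 4.0.16 (TMM factors only).

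Alternatives covered scaling (TMM, or totals that leave out 102 genes, those of mitochondria, ribosomal proteins and globins plus Gm42418), the mean of single-cell CPM, each run alone, cells of at least 5000 UMIs, pre-supporting and Sertoli cells summed, a prior count of 5, minimums of 50 and 500 UMIs, and thinning to 2000 and 5000 UMIs.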

Additional observations from a re-analysis of the deposited data

Results flagged for a closer look

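For 8 of the 40 pairs of a gene and a type with enough cells in both knockouts, the interval lay above the XY control in one knockout and below it in the other. The same share over all genes was not counted, so the 8 pairs are a description only. Intervals clear of 0 are common in a single type. Among all genes of pre-supporting cells, 27.4% lay below 0 in the E11.5 knockout. In the E11.75 knockout, 20.8% lay below and 41.1% above. The difference between the knockouts was not tested, as each is 1 sample, and stage and library cannot be told apart. Ldha supplied 5 of the pairs, each higher in the E11.5 knockout and lower in the E11.75 knockout. Its log2 ratios were 0.30 and -0.53 in the coelomic epithelium, 0.52 and -0.35 in endothelial cells, 0.63 and -0.30 in interstitial progenitors, 0.67 and -0.12 in mesonephros cells, and 0.51 and -0.20 in pre-supporting cells. Slc16a3 went the same way in the coelomic epithelium, with 0.42 and -0.39, and in endothelial cells, with 1.16 and -0.76. Slc16a1 went the opposite way in mesonephric tubules, with -0.99 in the E11.5 knockout and 0.81 in the E11.75 knockout. Ldhb had 0 such pairs.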

How the results depend on the processing

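Of 64 recomputed log2 ratios of the 4 genes in pre-supporting cells, 49 stayed within the counting interval, 14 moved and 1 reversed. The reversed value was Slc16a1 in the E11.75 knockout, which read -0.046 once Sertoli cells were added. Adding Sertoli cells also gave 0.59 for Ldha, -1.30 for Ldhb, -0.80 for Slc16a1 and 1.83 for Slc16a3 in the E11.5 knockout, and -1.65 for Ldhb and 0.55 for Slc16a3 in the E11.75 knockout. With TMM factors Ldha read 0.60 and -0.40 and Ldhb -1.02 and -1.68 in the earlier and later knockout. With totals without the dropped classes, the E11.5 knockout gave 0.60 for Ldha and -1.03 for Ldhb. The first runs alone gave -1.05 and the second runs -1.17 for Ldhb in the E11.5 knockout. In the E11.75 knockout the intervals of the carriers held 0 under several alternatives. For Slc16a1 they were -0.10 to 0.62 with TMM factors, -0.11 to 0.76 over the second run of the XY control and -0.067 to 0.95 in cells with at least 5000 UMIs. For Slc16a3 they were -0.16 to 0.34, -0.064 to 0.53 and -0.25 to 0.48 in that order. The E11.75 knockout has 1 run, so that run was set over the second run of the XY control. The share of genes at least 1 log2 unit higher was 0.359% in the E11.5 knockout and 1.57% in the E11.75 knockout at a minimum of 500 UMIs, and 0.815% in the XX control at a minimum of 50. The share at least 1 log2 unit lower in the XX control was 1.07% at a minimum of 500. The differences in the share of cells with a UMI were -2.77 points for Ldhb in the E11.5 knockout, -3.99 points in the E11.75 knockout, 12.1 points for Ldha and 17.02 points for Slc16a3 in the E11.5 knockout at 3000 UMIs. At 2000 UMIs they were -5.48, -9.66 and 10.1 points for Ldhb in the earlier knockout, Ldhb in the later one and Slc16a3 in the earlier one. At 5000 UMIs they were -0.15 and -1.30 points for Ldhb and 8.16 points for Ldha in the E11.5 knockout. The counts of types in the direction stated, for Ldhb in both knockouts and for Ldha and Slc16a3 in the E11.5 knockout, were 12, 11, 12 and 10 under both other scalings and 11, 11, 11 and 9 without immune cells, alternatives chosen after seeing the data. The causes of these moves were not tested. No paired analysis was possible because each group is 1 pooled sample and no result comes from a test across samples. With 82 to 145 UMIs in pre-supporting cells, Slc16a1 had wide intervals, such as -0.52 to 0.24 in the E11.5 knockout, and differences within them were not detectable at this depth.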
